A study of Mus musculus with 5 samples.

Results

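The epidermal kallikrein cluster is a row of 10 genes for secreted serine proteases, Klk5 to Klk14, on mouse chromosome 7. The members were chosen by name, and all 10 were found among the 21631 protein-coding genes of the 19 autosomes and X in the RefSeq table of GRCm38.p6, the assembly also called mm10. In that table they lie on chromosome 7 from 43680880 to 43851181, a span of 170.3 kb that holds no other protein-coding gene. Their chromosomal order is Klk14, Klk13, Klk12, Klk11, Klk10, Klk9, Klk8, Klk7, Klk6 and Klk5, all 10 read from the plus strand, so that the lower coordinate of each gene is its 5′ side.

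The cells were basal progenitors of the epidermis. They came from the back skin of adult mice of control genotype, aged 71 days after birth, and the labels used here give neither the number nor the sex of the mice. The mice carried K14-RFP, a red reporter driven by the promoter of a basal keratin, and K10-H2B-GFP, a green histone reporter driven by that of a suprabasal keratin, and the sort gate took Sca1-positive cells with strong RFP and without GFP. Chromatin immunoprecipitation followed by sequencing was done on 2 libraries with an antibody to H2AK119ub, 2 libraries with an antibody to H3K27me3 and 1 input library without antibody, and all 5 libraries share this genotype and age. The deposited data are 1 list of called regions per mark, 33155 for H2AK119ub and 15102 for H3K27me3, each giving only chromosome, start and end. No height, score or replicate value was available for a region, the read depth behind the lists is unknown, and no value below has a replicate error or a test. The lists hold no expression values, so the sort was not checked against marker genes.

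Kallikrein-related peptidases are made as inactive precursors and act outside the cell. In the skin they are produced by the upper, differentiated layers and cut the corneodesmosomes that hold dead cells together at the surface. Klk5 starts the cascade by activating itself and the precursors of Klk7 and Klk14, and the inhibitor encoded by Spink5 holds it back. H2AK119ub, ubiquitin on histone H2A, is written by Polycomb repressive complex 1, and H3K27me3, trimethylation of histone H3, by Polycomb repressive complex 2, and both are known chiefly from silent developmental genes.

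All 10 kallikrein genes had an H2AK119ub region within 1 kb of an annotated end, and none had H3K27me3 there. Among all protein-coding genes, 57.1% had H2AK119ub and 24.7% had H3K27me3 by the same rule, and on chromosome 7 the shares were 51.7% and 18.1%. The combination found at the members, H2AK119ub without H3K27me3, was found at 36.0% of protein-coding genes. Among autosomal genes with H2AK119ub at an end, 33.3% also had H3K27me3, so that its absence was the more frequent state. The 10 genes are not 10 independent observations, because their ends met only 6 distinct H2AK119ub regions, and 5 of the genes shared 1 of these. The lists come from bulk chromatin, in which a mark on few cells and a weak mark on all cells cannot be told apart.

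Promoter sequences of 5 kallikrein genes and of Klk1b8, a glandular kallikrein gene, are printed here because they stand for the states found along the locus. The promoter windows of Klk13 and Klk7 lay wholly in H2AK119ub regions, Klk10 had a called region just downstream of its start and none over it, Klk8 had by far the most CG dinucleotides of the members, Klk4 is the first gene beyond Klk5 and had both marks, and Klk1b8 had H3K27me3 without H2AK119ub. Each sequence is the plus strand of GRCm38.p6 from RefSeq, up to the last base before the gene's first annotated base, with CG dinucleotides in capitals. The positions are chr7:43712317-43712566 for Klk13, chr7:43780804-43781053 for Klk10, chr7:43797327-43797531 for Klk8, chr7:43811044-43811293 for Klk7, chr7:43880910-43881159 for Klk4 and chr7:43950416-43950665 for Klk1b8.
Klk13: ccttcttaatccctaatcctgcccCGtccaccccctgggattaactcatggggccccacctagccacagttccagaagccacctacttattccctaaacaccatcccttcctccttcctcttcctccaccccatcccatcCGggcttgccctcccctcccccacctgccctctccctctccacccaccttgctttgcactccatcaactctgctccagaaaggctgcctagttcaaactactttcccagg
Klk10: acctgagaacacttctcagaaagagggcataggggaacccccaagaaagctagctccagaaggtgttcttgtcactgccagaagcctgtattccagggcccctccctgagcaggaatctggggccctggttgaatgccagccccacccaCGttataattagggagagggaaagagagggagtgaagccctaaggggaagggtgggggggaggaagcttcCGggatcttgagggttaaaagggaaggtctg
Klk8: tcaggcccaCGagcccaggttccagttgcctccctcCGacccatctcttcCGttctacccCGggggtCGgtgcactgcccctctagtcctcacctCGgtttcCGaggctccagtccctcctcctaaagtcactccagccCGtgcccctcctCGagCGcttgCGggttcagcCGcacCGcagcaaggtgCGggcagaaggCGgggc
Klk7: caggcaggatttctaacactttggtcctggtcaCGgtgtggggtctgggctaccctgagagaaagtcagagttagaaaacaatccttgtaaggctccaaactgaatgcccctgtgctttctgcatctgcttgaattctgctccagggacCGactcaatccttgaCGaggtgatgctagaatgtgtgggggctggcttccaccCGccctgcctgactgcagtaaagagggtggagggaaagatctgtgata
Klk4: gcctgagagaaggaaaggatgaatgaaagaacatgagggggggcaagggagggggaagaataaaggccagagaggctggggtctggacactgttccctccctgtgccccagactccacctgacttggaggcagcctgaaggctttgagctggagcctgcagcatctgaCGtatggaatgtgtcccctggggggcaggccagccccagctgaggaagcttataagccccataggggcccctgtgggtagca
Klk1b8: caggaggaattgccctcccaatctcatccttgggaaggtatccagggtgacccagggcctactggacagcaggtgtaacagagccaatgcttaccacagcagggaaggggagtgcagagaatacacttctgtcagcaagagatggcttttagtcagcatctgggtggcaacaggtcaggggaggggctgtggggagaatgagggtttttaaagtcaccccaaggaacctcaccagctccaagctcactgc

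Across the cluster, 8 H2AK119ub regions covered 94.4 kb, or 55.4% of the span, and no H3K27me3 region touched it. The coverage was uneven. From Klk9 to Klk5, 94.5% of 59.6 kb lay in H2AK119ub regions, from Klk12 to Klk5 83.0% of 82.3 kb, and from Klk14 to Klk13 50.7% of 47.0 kb. Between Klk13 and Klk12 only 5.53% of 41.0 kb was covered, and the gap between regions there ran for 46.2 kb. Of the gaps between neighbouring autosomal H2AK119ub regions, 18.9% were at least as long, and these held 88.3% of the length between regions. The genes from Klk9 to Klk5 thus lay in nearly continuous H2AK119ub, and the regions from Klk14 to Klk10 were separate stretches.

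**Figure D1:**
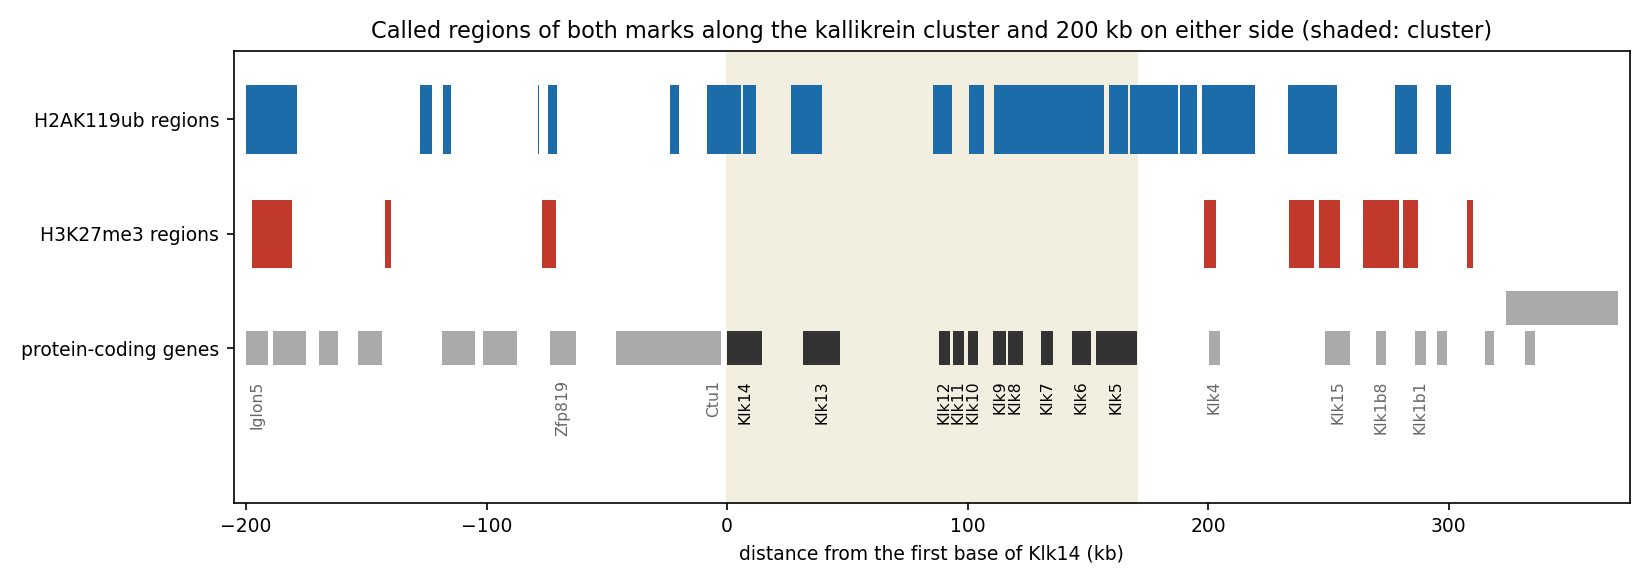
Called H2AK119ub regions (upper row) and H3K27me3 regions (middle row) over the cluster, shaded, and 200 kb on either side, against the distance in kb from the first base of Klk14. The lower row gives protein-coding genes, members in black, with Klk1b21 raised because its gene model overlaps others. The shaded span holds 8 H2AK119ub regions and 0 H3K27me3 regions.

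The desquamation proteases Klk5, Klk7 and Klk14 were all H2AK119ub genes. Klk5, the trypsin-like initiator, occupies 43834157 to 43851181, and 82.4% of its body lay in H2AK119ub regions. It began inside a 45.8 kb region from 43791928 to 43837760, ended inside a 19.7 kb region from 43848461 to 43868208, and its RefSeq promoter window at transcript start 43842269 lay wholly in a 7.71 kb region between these. Klk7, the chymotrypsin-like enzyme of the cornified layer, occupies 43811294 to 43816387, and the whole gene and its promoter window lay in the 45.8 kb region. Klk14, a trypsin-like protease that Klk5 activates, occupies 43680880 to 43695536. Its 5′ end lay in a 13.9 kb region from 43672620 to 43686558, which began inside the neighbouring gene Ctu1, and the promoter window at transcript start 43690418 lay in a separate 5.36 kb region. The 3′ end of Klk14 had no region within 1 kb, and 75.3% of the gene was covered.

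Klk6, Klk8 and Klk9 lay with Klk7 in the 45.8 kb region. Klk6 encodes neurosin, a protease also known from the central nervous system, and Klk8 encodes neuropsin, known from hippocampal synapses and from the epidermis. Both gene bodies were covered over 100% of their length, from 43824438 to 43832027 for Klk6 and from 43797532 to 43803826 for Klk8. Klk9, at 43791625 to 43796758, was covered over 94.1%, since the region began 303 bases after its first base, and only 4.33% of its promoter window was inside. The RefSeq transcript start of Klk9, at 43791891, lay just before the region start at 43791928. The region was wide for its kind. Autosomal H2AK119ub regions had a median width of 8.09 kb, and 5.34% of them were at least as wide as 45.8 kb.

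At Klk10, Klk11 and Klk12 the regions were narrower, and at Klk11 and Klk10, as at Klk9, a region edge lay close to a transcript start. Klk12, at 43768891 to 43773581, lay wholly in a 7.88 kb region from 43766623 to 43774499. Klk11, at 43774617 to 43779263, had 0% of its body in a region: it counted as marked because the region over Klk12 ended 117 bases short of its first base, and 44.3% of the promoter window at that start was inside. The second RefSeq promoter window of Klk11, at transcript start 43776329, lay 1579 bases from the nearest region. Klk10, at 43781054 to 43785410, had 94.7% of its body in a 6.45 kb region from 43781286 to 43787731, but its promoter window ended 182 bases before that region. Klk11 and Klk10 were therefore the members whose marking rested most on the window used.

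Klk13, at 43712567 to 43727864, had its 5′ end and promoter window in a 12.8 kb region from 43707674 to 43720460. The region covered 51.6% of the gene and left the 3′ end unmarked. Over the 10 members, 7 were marked at both ends and 3, namely Klk11, Klk13 and Klk14, at the 5′ end alone. The share of all protein-coding genes marked at both ends was not counted, so the 7 of 10 is a description only. H2AK119ub covered at least 50% of the body at 9 of 10 members, against 34.6% of protein-coding genes, and H3K27me3 at 0 of 10, against 11.7%. The members' median covered share was 94.4%, and that of all protein-coding genes was 8.69%. Members and all genes were not matched for gene length, on which a covered share can depend. By promoter window, 9 of 10 members had H2AK119ub over at least 1 base, against 40.2% of protein-coding genes with a promoter entry. For H3K27me3 it was 0 of 10, against 19.6%. Only 7 members had a promoter window wholly in an H2AK119ub region, and Klk9 counted on 4.33% of its window. These shares come from the same few regions as the counts at gene ends.

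**Figure D2:**
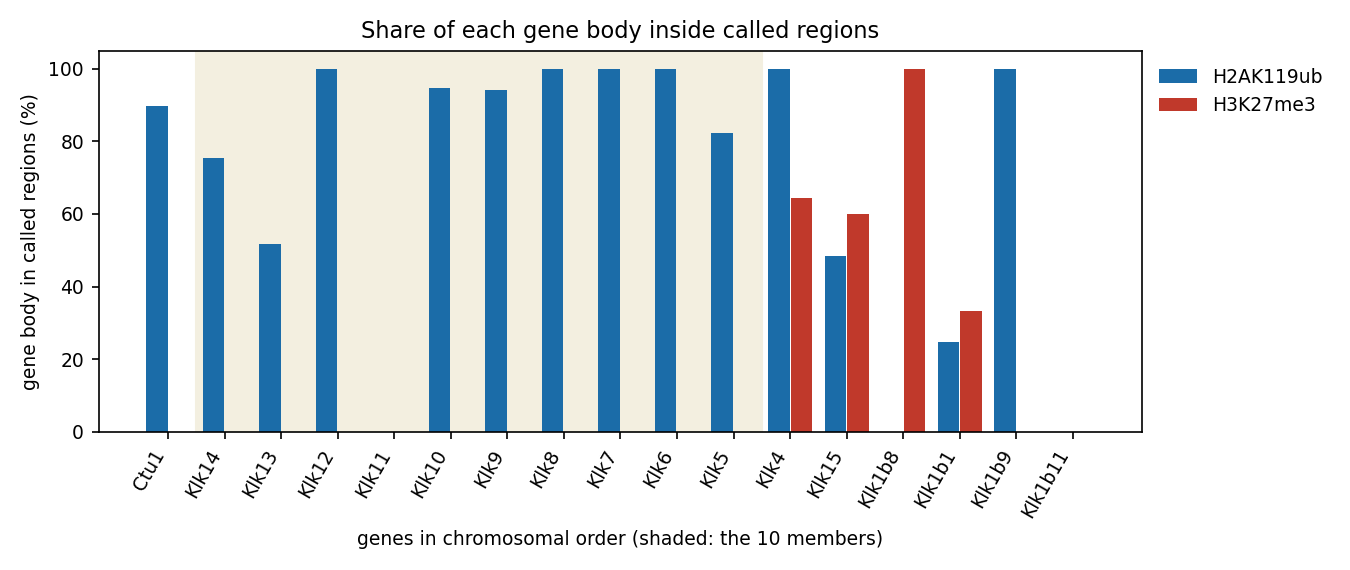
Percent of each gene body inside called H2AK119ub regions (blue) and H3K27me3 regions (red), with genes in chromosomal order and the 10 members shaded. H2AK119ub covers 51.6 to 100% of every member except Klk11, at 0%, and H3K27me3 covers 0% of all 10, whereas it covers 64.5% of Klk4 and 60.04% of Klk15 to their right.

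H3K27me3 was called on both sides of the cluster. The stretch without it ran from 43609580 to 43879367, a length of 269.8 kb, which began 71.3 kb before the first base of Klk14 and ended 28.2 kb after the last base of Klk5. Such a stretch is not rare. Gaps between neighbouring autosomal H3K27me3 regions had a median of 26.6 kb, 14.6% of them were at least as long, and these held 76.6% of the length between regions. The nearest H3K27me3 region to the left was a 5.50 kb region at the 5′ end of Zfp819, a zinc finger gene, where a 3.42 kb H2AK119ub region overlapped it. A 16.6 kb region at the far left lay over Iglon5, a cell adhesion gene, and 4931406B18Rik, within 31.1 kb of H2AK119ub. Ctu1, a tRNA-modifying enzyme gene and the nearest one before Klk14, had H2AK119ub alone, with 89.7% of its body covered by the region it shared with Klk14.

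To the right, H2AK119ub continued past Klk5 while H3K27me3 set in at Klk4. Klk4, the enamel matrix protease, occupies 43881160 to 43885804. It lay wholly in a 22.0 kb H2AK119ub region from 43878412 to 43900417, inside which a 4.79 kb H3K27me3 region from 43879368 to 43884155 covered its promoter window and 64.5% of its body. When H2AK119ub regions under 3 kb apart were joined, 5 of them formed a stretch of 108.5 kb from 43791928 to 43900417, reaching from Klk9 to beyond Klk4, and the 4.79 kb at Klk4 was the only H3K27me3 in it. Klk15, a trypsin-like member known from the prostate, had both marks, in a 20.6 kb H2AK119ub region and an 8.79 kb H3K27me3 region. Klk1b8 lay wholly in a 14.8 kb H3K27me3 region and had no H2AK119ub region closer than 3.60 kb. Klk1b1 had both marks, with an H2AK119ub region of 9.33 kb and an H3K27me3 region of 6.44 kb. In the 200 kb after the cluster H2AK119ub covered 41.0% and H3K27me3 23.7%, and in the 200 kb before it 22.8% and 12.3%. In both flanks together most of the H3K27me3 length lay within H2AK119ub regions, 19.6 of 24.5 kb before the cluster and 30.1 of 47.4 kb after it.

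The 16 glandular kallikrein genes beyond Klk5 include Klk4, Klk15, the tissue kallikrein Klk1 and the mouse expansion of Klk1b genes expressed chiefly in salivary gland. Of the 16, 8 (50%) had H2AK119ub and 4 (25%) had H3K27me3, which is near the 57.1% and 24.7% of all protein-coding genes. Both marks were present at Klk4, Klk15 and Klk1b1, H3K27me3 alone at Klk1b8, and H2AK119ub alone at 5 genes. Among these 5 were Klk1b3 and Klk1b4, which encode the gamma and alpha subunits of the nerve growth factor complex and met the same 14.3 kb region. Klk1b11, Klk1b21, Klk1b26, Klk1b27, Klk1b22, Klk1b16 and Klk1b24 had neither mark at their ends. From Klk4 to Klk1, H2AK119ub covered 22.6% of 348.5 kb and H3K27me3 13.1%. The stretch nearest the cluster, from Klk4 to Klk15, was more densely covered, with 67.7% of 58.9 kb in H2AK119ub regions, against 55.4% for the cluster, and 37.2% in H3K27me3 regions. The Klk1 and Klk1b genes are copies of each other. Of the 16 glandular promoter windows, 14, all but those of Klk4 and Klk15, held runs of 30 bases also found in another kallikrein window. The median over the 16 was 16.6% of such runs shared. Shared runs of 75 bases were held by 3 windows, at Klk1b21 and Klk1b24 (46.0% of runs each) and at Klk1b27 (6.64%). None of the 12 windows of the members shared a run of either length. The reads were 75 bases long, so that a read from a shared run of that length cannot be placed in 1 copy, and the part of this in the missing regions at the copied genes was not tested.

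The promoter windows of the members were poor in CG dinucleotides apart from that of Klk8. A RefSeq promoter window here runs from 250 bases before to 50 after a transcript start, and 12 such windows were listed for the 10 members. Their median was 4 CG dinucleotides per window, against 13 over 21045 windows of protein-coding genes, and 11 of the 12 held at most 8. Klk8 held 23, with an observed to expected CpG ratio of 0.74, more than 70.7% of all windows, and the printed stretch of Klk8, which holds 15 of these CGs, shows them spread over its length. The single window of Klk14 held 0, and both Klk13 and Klk10 held 2. The 45.8 kb H2AK119ub region thus held the window of Klk8 together with those of Klk7 and Klk6, which had 3 to 8 CGs. The glandular windows had a median of 2, a highest count of 9 at Klk15, and 0 at Klk1b8, whose printed sequence has no capitals. Over all autosomal windows the median count was 14 where H3K27me3 lay over the window, 14 where H2AK119ub did without it and 13 where neither did.

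**Figure D3:**
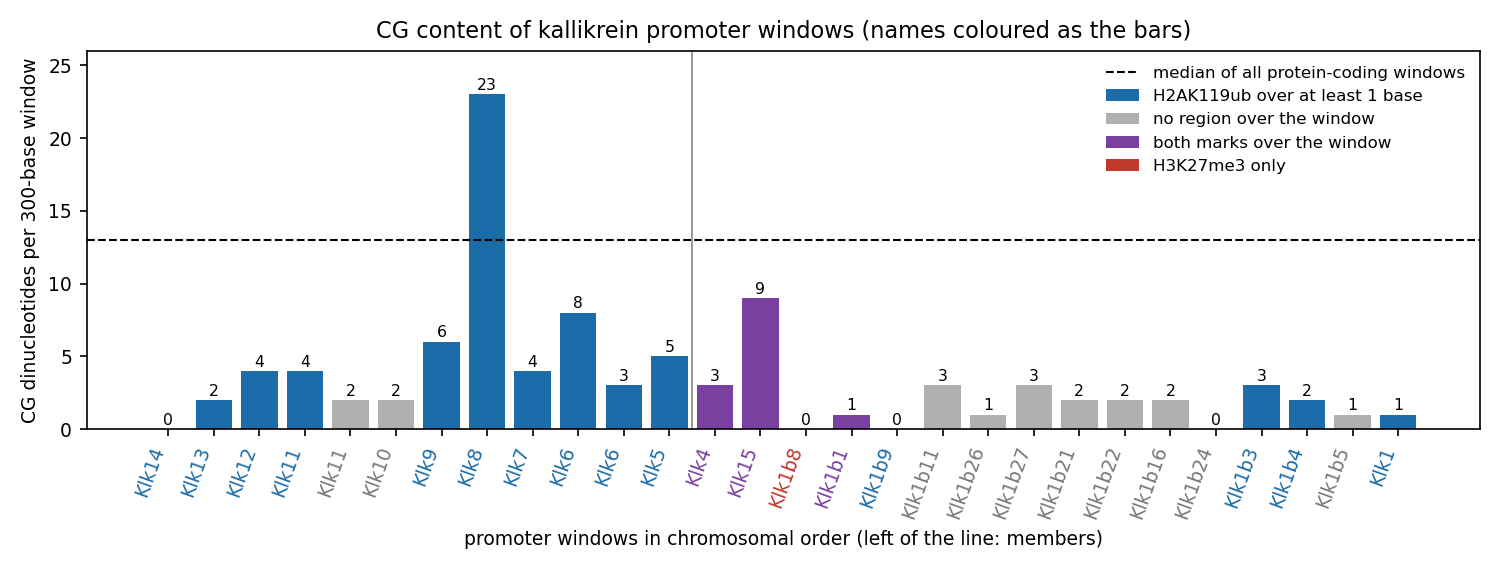
Number of CG dinucleotides in each 300-base promoter window of the kallikrein genes, in chromosomal order, with members to the left of the vertical line and colours giving the called regions over the window. Klk8 reaches 23 and the other members stay between 0 and 8, below the dashed median of 13 for protein-coding windows.

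Searches for 3 other motifs on both strands of the member windows found none. TATAAA, the TATA box core, was in 0 of 12 member windows and in 12.7% of all windows. TGANTCA, which AP-1 factors bind, was in 0 of 12 and in 7.04% of all windows. AACCGGTT, which grainyhead-like factors bind, was in 0 of 12 and in 0.181%. The last motif contains a CG, and the absence of all 3 describes only these windows.

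The genes that act with the kallikreins were described from 4 further lists. Among 8 genes for proteases that activate kallikreins or act beside them, 6 had H2AK119ub and 2 had H3K27me3. These shares, 75% and 25%, stood against 57.1% and 24.7% of all protein-coding genes. St14, which encodes matriptase, had a 21.2 kb H2AK119ub region, Prss8, which encodes prostasin, 16.8 kb, Furin 59.7 kb, Tmprss13 56.6 kb and the urokinase gene Plau 21.0 kb, all without H3K27me3. Mep1a, a meprin gene, had both marks, the plasminogen gene Plg had H3K27me3 alone, in a 35.6 kb region, and Mep1b had neither.

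Among 13 protease inhibitor genes, 8 (61.5%) had H2AK119ub and 3 (23.1%) had H3K27me3, against 57.1% and 24.7% of all protein-coding genes. Spink5, the main inhibitor of Klk5, had a 3.78 kb H2AK119ub region at an end, which covered 2.95% of its body, and Spink6 had no region. H2AK119ub was widest at Serpina3n (115.3 kb), Spint2 (54.5 kb) and the cystatin gene Cst6 (29.1 kb), each without H3K27me3. Slpi and Serping1, a plasma inhibitor gene, had both marks, with H3K27me3 regions of 6.33 kb and 5.22 kb, and Wfdc12 had H3K27me3 alone, in a 31.4 kb region. Serpina1a, Serpinc1 and A2m, also genes for plasma inhibitors, had neither mark, whereas Serpinf2, another of these, had H2AK119ub alone, in a 10.3 kb region over 100% of its body.

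Among 13 genes for substrates and downstream signals, 8 (61.5%) had H2AK119ub and none had H3K27me3. Over all protein-coding genes the shares were 57.1% and 24.7%. Cdsn, which encodes the corneodesmosomal adhesion protein cut by Klk5 and Klk7, lay wholly in a 29.8 kb H2AK119ub region. F2rl1, which encodes the receptor PAR2 that kallikreins cleave, had 17.9 kb of H2AK119ub at an end over 4.53% of its body, and the cytokine gene Tslp, induced through that receptor, had 10.03 kb. The thrombin receptor gene F2r had a 20.4 kb H2AK119ub region. The desmogleins Dsg1a, Dsg1b and Dsg1c, the filaggrin gene Flg and Smpd1 had neither mark, and Dsc1 had a 3.29 kb H2AK119ub region at an end. Other hydrolases of the cornified layer all had H2AK119ub, 7 of 7, against 57.1% of all protein-coding genes. The widest regions were at Ctsd (146.4 kb), Blmh (45.9 kb) and the retroviral-like protease gene Asprv1 (44.8 kb). Ctsd and Asprv1 lay wholly in theirs, whereas the region at Blmh met its 3′ end, over 18.4% of the body and 0% of the promoter window. Only Ctsz, a cathepsin gene, had H3K27me3 too, in an 8.60 kb region.

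**Figure D4:**
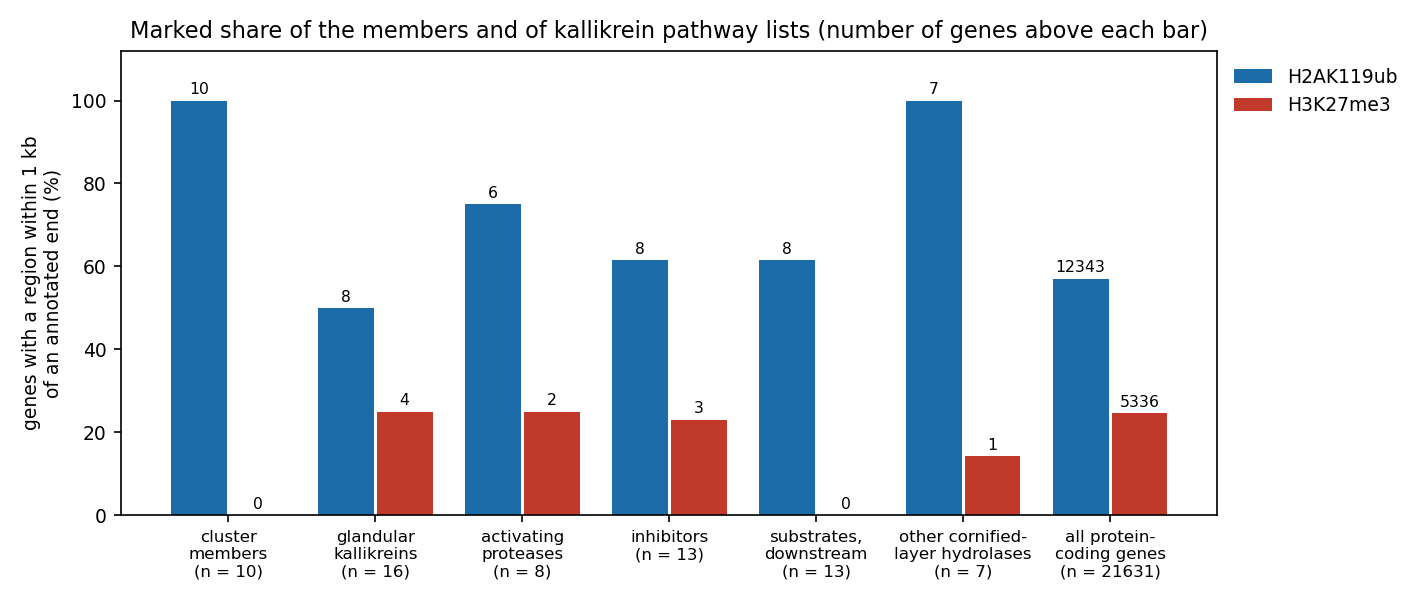
Percent of genes with an H2AK119ub region (blue) or an H3K27me3 region (red) within 1 kb of an annotated end, in the cluster, in 5 kallikrein pathway lists and over all protein-coding genes, with the number of marked genes above each bar. The members stand at 10 of 10 and 0 of 10, and all protein-coding genes at 57.1% and 24.7%.

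Over the 57 genes of the 5 pathway lists, glandular kallikreins included, 37 (64.9%) had H2AK119ub and 10 (17.5%) had H3K27me3 by gene ends. By that rule the background was 57.1% and 24.7%, and other rules are given below. A difference between the cluster and these lists was not tested, since 1 list of regions per mark gives no error for it.

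The other gene clusters of epidermal differentiation set beside this one carried much less H2AK119ub over their length, and further epidermal clusters were not measured. The epidermal differentiation complex on chromosome 3, taken from S100a11 to S100a9, had 6.13% of 2834 kb in H2AK119ub regions and 1.01% in H3K27me3 regions, with H2AK119ub at the ends of 11 of its 58 protein-coding genes. The clade B serpin genes on chromosome 1, from Serpinb5 to Serpinb8, had 1.54% of 747.8 kb covered by H2AK119ub and none of 12 genes marked at an end. The desmosomal cadherin genes, from Dsc3 to Dsg2, had 3.35% of 643.6 kb covered and 2 of 9 genes marked. Neither of the last clusters met an H3K27me3 region. The kallikrein cluster, at 55.4%, was also above the 21.1% of chromosome 7 and the 17.5% of the autosomes, whereas its 0% of H3K27me3 stood against 6.94% and 6.15%. The comparison clusters, the epidermal differentiation complex included, lay below the 17.5% of the autosomes in H2AK119ub coverage. By gene ends, too, their marked shares lay below the 57.1% of all protein-coding genes. The contrast thus holds low values in the comparison clusters as well as a high value in the kallikrein cluster. The clusters differ in length and in gene density, and none of these differences was tested.

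**Figure D5:**
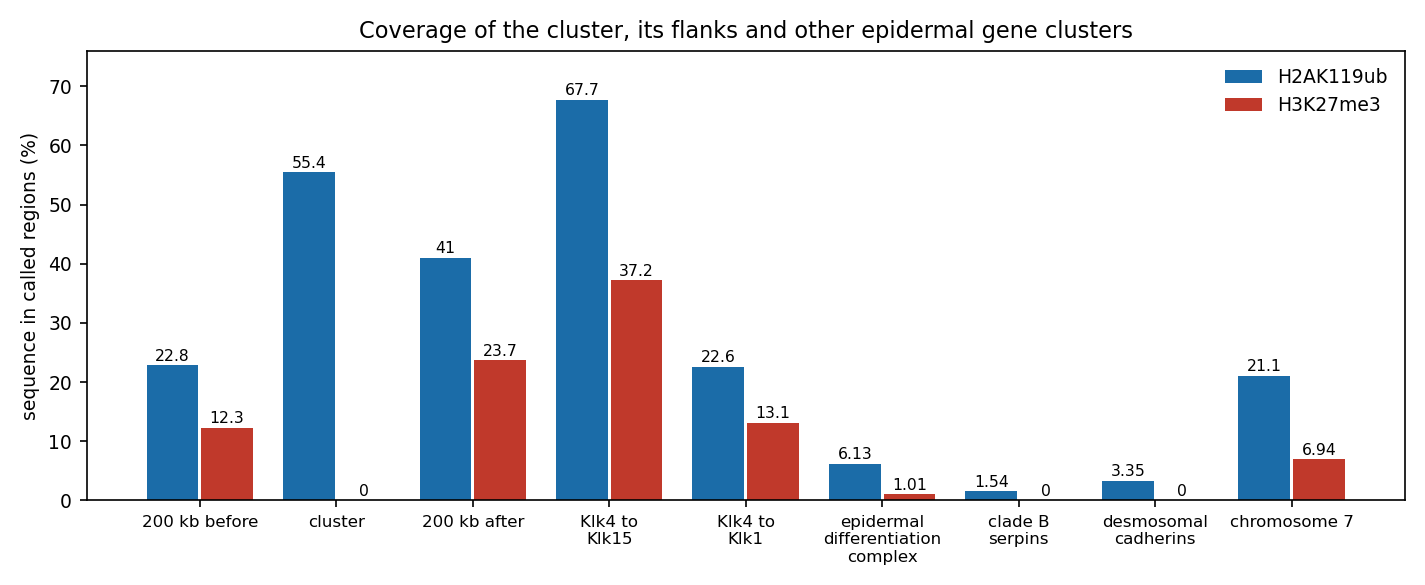
Percent of sequence inside called H2AK119ub regions (blue) and H3K27me3 regions (red) for the cluster, its flanks of 200 kb, the glandular genes from Klk4 to Klk15 and from Klk4 to Klk1, 3 other epidermal gene clusters and chromosome 7. The cluster has 55.4% H2AK119ub and 0% H3K27me3, and the 3 other epidermal clusters shown have 1.54 to 6.13% H2AK119ub.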

How the data were processed

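Each mark had 2 libraries and the authors deposited 1 list of regions for it. Per the file headers a list gives chromosome, start and end, so the columns hold positions and no other measurement. The submitters' processing notes name Bowtie2 2.3.3.1, SAMtools 1.9 and the build mm10. For the peak caller, its settings, the role of the input library and whether libraries were pooled, the answer is not given in the sources used here. How many regions are called and how wide they are depends on them, and a gene without a region may carry the mark below the caller's limit.

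Positions were taken to start at 0 as in BED files, which is uncertain by 1 bp. Genes were matched by their current RefSeq symbol, not by synonym, since several glandular kallikreins have members' names as synonyms. A gene was counted as marked where a region lay within 1 kb of either annotated end. Python 3.11.15 was used. Overlap and coverage counts were first tested on simulated data, with 0 of 8000 checks wrong. The members and gene lists were chosen with earlier results of these data known. Named genes were all members, window genes with H3K27me3, the nearest neighbours and, per pathway list, up to 5 genes with H3K27me3, the 3 widest H2AK119ub genes and those with neither mark. Prss8, Plau, Spink5, Serpinf2, F2rl1, Tslp and Dsc1 were named for their roles after the values had been seen, and the printed promoters were chosen likewise. A gene that the rule takes is not reported here. With 1 list per mark there was no replicate error, and no test was made.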

Additional observations from a re-analysis of the deposited data

How the results depend on the processing

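The count of members with H2AK119ub was 9 or 10 of 10 in all 7 alternatives, and Klk11 or Klk10 was the member lost. The count with H3K27me3 was 0 in all 7. Of the 57 pathway genes, 39 had a RefSeq promoter entry. Counting by that window was an alternative added after the data had been seen. By it, 22 of the 39 had H2AK119ub, against 40.2% of protein-coding genes with a promoter entry. By gene ends 37 of 57 had it, against 57.1% of protein-coding genes. With at least 50% of the gene body covered, 26 of 57 did, against 34.6%. Fewer genes could be counted by promoter window. Joining regions under 3 kb apart moved the H2AK119ub coverage of the cluster from 55.4% to 57.8%. H2AK119ub coverage of the flanks was 31.9% at 200 kb on each side, 41.3% at 100 kb, 25.6% at 500 kb, 29.1% with regions of at least 5 kb and 32.7% with gaps joined. H3K27me3 coverage of the flanks was 18.0%, and under the same settings 17.5%, 12.9%, 15.6% and 19.6%. Starts counted from 1 changed no count. No paired analysis was possible because each mark has 1 list, in which the replicates cannot be told apart. For the same reason no replicate could be left out. Read depth is unknown, so a missing region is no measure of absence.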

Other observations

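The longest H2AK119ub gap of the cluster, between Klk13 and Klk12, holds its only other annotated gene, the long noncoding RNA 2310002F09Rik, read from the minus strand. It had neither mark at its ends, and the nearest H2AK119ub region was 10.7 kb away. Pseudogenes of the kallikrein family were marked to the right of the cluster. Klk2-ps, between Klk4 and Klk15, lay wholly in a 20.6 kb H2AK119ub region and wholly in a 10.1 kb H3K27me3 region. Klk1b2-ps had 100% of its body in H2AK119ub and 60.6% in H3K27me3, and Klk1b7-ps (61.6%) and Klk1b10-ps (63.6%) had H3K27me3 alone. The pseudogenes were not in the comparison of shared runs, so whether the limit on read placement given for the glandular genes holds for them was not tested. All genes of this paragraph were chosen after their values had been seen.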
